A study of Caenorhabditis elegans with 5 samples.

Results

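A group of 44 genes had less RNA in Caenorhabditis elegans with a germline tumour than in animals without one, and less again when tumour animals had gone without food than when they had eaten. The members were chosen on these readouts. A gene had to be at least 2-fold lower (a log2 fold of -1 or below) in gld-1 RNAi over control animals and at least 2-fold lower in fasted over fed gld-1 RNAi animals. Its normalized reads also had to average 50 or more in each pair of libraries. Of 45461 gene identifiers, 8925 passed that minimum, 68 met both folds, and 24 of these were set aside by their names, as the rule asks. The 24 comprised 5 cuticle collagens (col), 3 C-type lectins (clec), 3 yolk proteins (vit), 2 each of the lec, irg and ugt genes, and 1 each of the asp, cpr, cyp, dod and lys genes, acdh-1 and mtl-2. All 44 remaining genes are annotated as protein coding, 20 of them with a gene name and 24 with a sequence name only. The label given to the group, lower in tumour and lower when fasted, is thus its rule and not a finding.

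RNA was sequenced from whole worms kept at 20 °C, with 1 library per group. The fasted library came from gld-1 RNAi animals that spent 48 h from day 2 of adulthood on plates without bacteria, and the fed library from gld-1 RNAi animals that spent the same 48 h eating L4440 bacteria, the empty-vector strain. Both were labelled as day 4. The gld-1 RNAi library was taken on day 3. The control library was taken on day 3, and the young adult library on day 1, both from animals on L4440 bacteria. Every library combined about 3000 animals of 2 experiments. Variation among experiments is hidden by that pooling, and neither a p-value nor a replicate error was computed here. Intervals below are exact 95% intervals of the ratio of reads in 2 libraries and cover counting error only. The labels do not settle how long the animals ate gld-1 RNAi food, since 1 of them has larvae and another has day 1 adults placed on it.

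GLD-1 is an RNA-binding protein of the germ line. Germ cells without it leave meiosis, divide again and fill the gonad as a tumour, so that few oocytes form. The worm pharynx takes in bacteria, and the intestine digests them, makes the yolk that oocytes take up, and secretes lysozymes and caenopores, saposin-like proteins that open holes in bacterial membranes. Digestion, yolk production and gut defence are thus all tasks of the intestine. In RNA from whole worms, fewer cells of a type and less RNA per cell cannot be told apart.

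The RNAi target was measured first. On 1 scale over the 5 libraries, called the level below, gld-1 stood at 1592 in the fasted, 3061 in the fed, 1994 in the gld-1 RNAi, 20340 in the control and 17593 in the young adult library. It was low in all 3 RNAi libraries, and lower in the fasted than in the fed library by a log2 fold of -0.92 (interval -1.02 to -0.82). Food and the gld-1 level thus differed together, and whether the knock-down itself differed was not tested. The libraries held between 13803289 reads (fasted) and 27598482 reads (gld-1 RNAi) in genes, and the young adult library had 15426039. The share of ribosomal RNA was 3.51% there and between 25.4% and 27.8% in the others.

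Both contrasts of the rule are described here without a test, since they chose the genes. Of the 8925 measured genes, 6.1% (544 genes) were at least 2-fold lower in gld-1 RNAi over control and 3.27% (292 genes) in fasted over fed. These contrasts share no library. The 68 genes in both made up 12.5% of the genes lower in the tumour animals and 23.3% of those lower in the fasted animals. Among the 44 members the median log2 fold was -1.28 in gld-1 RNAi over control, ranging from -2.66 to -1.005, where all tested genes had a median of -0.10, 7.99% of them at least 2-fold lower and 8.97% higher. In fasted over fed the members had a median of -1.55, ranging from -3.77 to -1.01, where the median of all tested genes was 0.04, with 3.31% at least 2-fold lower and 1.27% higher. In the fasted library the members stood at 2.53% to 24.3% of their level in the control, with a median of 11.8%. Together they held 0.0427% of the reads outside ribosomal RNA in the fasted library, 0.143% in the fed, 0.156% in the gld-1 RNAi, 0.397% in the control and 0.432% in the young adult library. On the edge of the first threshold, H01G02.1 (-1.005), Y69A2AL.2 (-1.03) and fdr-1 (-1.04) were just inside, and C52D10.1 (-0.9997), dct-16 (-0.99) and C17H12.8 (-0.95) just outside. On the edge of the second, Y51H7C.1 (-1.01), spp-5 (-1.01) and F57C2.4 (-1.08) were inside, and K11D12.13 (-0.9987), Y62H9A.3 (-0.97) and PDB1.1 (-0.97) outside.

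**Figure D1:**
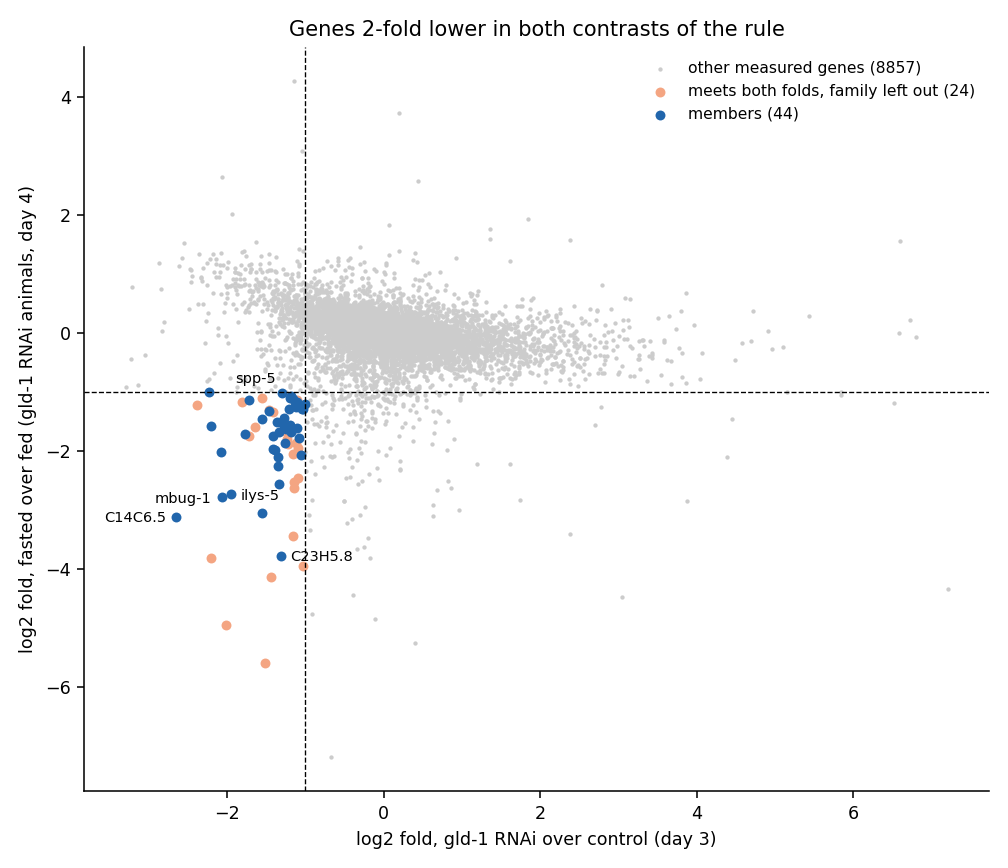
Log2 fold of gld-1 RNAi over control (horizontal axis) against log2 fold of fasted over fed (vertical axis) for the 8925 measured genes. Blue points are the 44 members, orange points the 24 genes set aside by family name, grey points the rest, and dashed lines mark log2 folds of -1. The members fill the lower left corner by construction, and several of the genes set aside lie below them.

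Named members linked to gut defence or to toxins included a lysozyme, a caenopore, a gene found in toxin screens and a toxin-regulated gene. ilys-5 (F22A3.6, chromosome X) encodes an invertebrate-type lysozyme, an enzyme that cuts bacterial cell walls. Its level was 380 in the fasted, 2579 in the fed, 1815 in the gld-1 RNAi, 7299 in the control and 8198 in the young adult library. The fasted library was lowest by far, and the 2 libraries without gld-1 RNAi were highest and close to each other. The log2 folds were -1.95 in gld-1 RNAi over control and -2.73 in fasted over fed. Both of these contrasts chose the gene, so the folds describe it and are no support.

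spp-5 (T08A9.9, chromosome X) encodes a caenopore. It stood at 1036 in the fasted, 2130 in the fed, 1952 in the gld-1 RNAi, 4999 in the control and 2570 in the young adult library. Per kb of exon it had the second highest mean level of the members, 6858, after C17F4.7 with 11277. Its fold in fasted over fed lay just past the threshold (-1.01), and 3 of its libraries, the young adult, fed and gld-1 RNAi ones, lay close together. hpo-6 (Y41D4B.16, chromosome IV), of a class named for hypersensitivity to pore-forming toxin, stood at 75.1 in the fasted, 217 in the fed, 285 in the gld-1 RNAi, 718 in the control and 222 in the young adult library. Here the control alone was high, and the young adult library resembled the fed one. ttm-2 (F26G1.4, chromosome II), a toxin-regulated target of MAP kinase, was the member with the lowest control level, with 36.8 in the fasted, 82.2 in the fed, 63.7 in the gld-1 RNAi, 152 in the control and 46.5 in the young adult library.

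The other measured ilys and spp genes met 1 of the folds of the rule or neither, while lys-2, a lysozyme of another family that was set aside by name, met both. Of the ilys lysozymes, 4 of 6 were measured. ilys-2 stood at 467 in the fasted, 159 in the fed, 127 in the gld-1 RNAi, 24.5 in the control and 9.95 in the young adult library, highest in the fasted library where ilys-5 was lowest. ilys-3 was likewise highest in the fasted library, at 1809, against 483 in the fed, 257 in the gld-1 RNAi, 73.4 in the control and 3.32 (3 reads) in the young adult library. ilys-4 was higher in gld-1 RNAi over control (log2 fold 1.23, interval 0.68 to 1.85) and had a log2 fold of 0.05 in fasted over fed (-0.50 to 0.59). Among the caenopores, 12 of 27 were measured in both pairs. On the list of 25 caenopores, 5 of 16 measured were at least 2-fold lower and 2 higher in gld-1 RNAi over control. In fasted over fed 6 of 12 were lower and 1 higher, where 7.99% and 3.31% of all tested genes were lower in these contrasts. Both counts of lower genes include spp-5, which the rule chose on these contrasts, so they describe the list and are no support. spp-2 and spp-3, which share the start of their sequence names with spp-5, were lower in gld-1 RNAi over control (-1.57 and -2.12) but had log2 folds of -0.40 (-0.81 to 0.00) and -0.04 (-0.45 to 0.36) in fasted over fed. spp-9 and spp-12 had 317 and 205 reads in the gld-1 RNAi library, against 1 and 8 reads in the control, and were lower in fasted over fed (-4.34 and -2.11). spp-17 and spp-23 were lower in fasted over fed (-3.22 and -3.11) and not 2-fold lower in gld-1 RNAi over control (-0.47 and 0.64). Only spp-5 of the 12 met both folds. On the list of 38 other antimicrobial and stress-induced secreted genes, 3 of 20 were lower and 2 higher in gld-1 RNAi over control (median -0.08). In fasted over fed 6 of 15 were lower and 3 higher (median -0.24). The members ilys-5 and hpo-6 are among the lower genes in both counts.

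**Figure D2:**
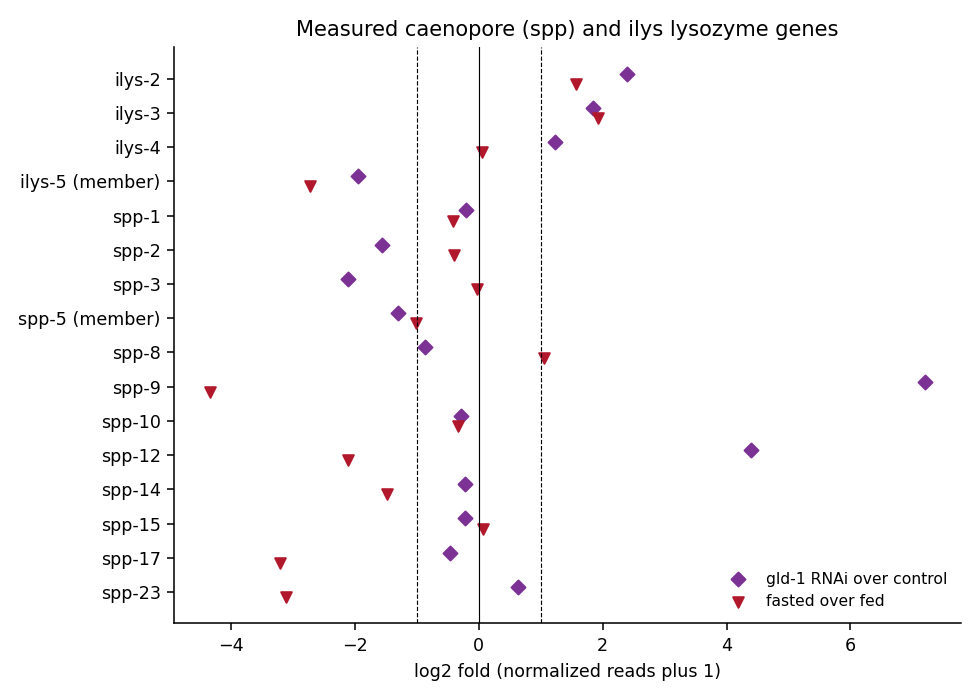
Log2 fold of gld-1 RNAi over control (purple diamonds) and of fasted over fed (red triangles) for the 12 caenopore and 4 ilys genes measured in both pairs, 1 gene per row. Dashed lines mark 2-fold either way. Both symbols lie left of -1 for ilys-5 and spp-5 only, and both lie right of 1 for ilys-2 and ilys-3.

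The only name family with more than 1 member was nspg, which gave 6 of the 44. Its genes encode nematode-specific peptides by name, and no further role is given here. Of 14 annotated nspg genes 9 were measured. nspg-7.1 (T20D3.2, chromosome IV) stood at 238 in the fasted, 775 in the fed, 851 in the gld-1 RNAi, 2002 in the control and 3465 in the young adult library. nspg-10 (F19C7.1, chromosome IV) stood at 285, 887, 906, 2021 and 2467 in the same order of libraries, and nspg-9 (LLC1.2, chromosome IV) at 144, 615, 765, 1645 and 2150. In these 3 the fasted library was lowest, the fed and gld-1 RNAi libraries lay close together, and the young adult library was highest.

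The remaining nspg members had the same order of libraries, with lower log2 folds in control over young adult than those above. In fasted over fed, nspg-9 had the lowest log2 fold of all nspg members (-2.06). nspg-14 (Y34B4A.6) stood at 60.7 in the fasted, 249 in the fed, 333 in the gld-1 RNAi, 908 in the control and 2240 in the young adult library. For nspg-13 (Y34B4A.9), its direct neighbour among the protein-coding genes of chromosome X, the levels were 33.6, 117, 199, 551 and 1721 in that order. nspg-6 (F56C9.7, chromosome III) had levels of 86.3, 324, 367, 910 and 1679. All 6 were lower in control over young adult, by log2 folds from -1.64 (nspg-13) to -0.29 (nspg-10), and lower in fasted over gld-1 RNAi, by log2 folds from -2.55 (nspg-13) to -1.69 (nspg-10). The 3 measured nspg genes outside the group met 1 of the rule's folds or neither. nspg-8 had a log2 fold of 0.06 (-0.12 to 0.25) in gld-1 RNAi over control and -0.72 in fasted over fed. nspg-11 had -0.71 and -0.25 (-0.75 to 0.23), and nspg-12 had -0.28 (-0.63 to 0.06) and -1.45. All 3 were lowest in the fasted library, like the members. In control over young adult their log2 folds were 0.09 (-0.12 to 0.29) for nspg-8, -0.96 (-1.25 to -0.68) for nspg-11 and -0.38 (-0.71 to -0.05) for nspg-12. In fasted over gld-1 RNAi they were -0.34 (-0.59 to -0.11) for nspg-8, -0.15 (-0.65 to 0.34) for nspg-11 and -1.45 (-2.17 to -0.84) for nspg-12. Reads shared by similar copies may have been split between nspg genes or lost, so that their levels are less certain than those of single genes.

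**Figure D3:**
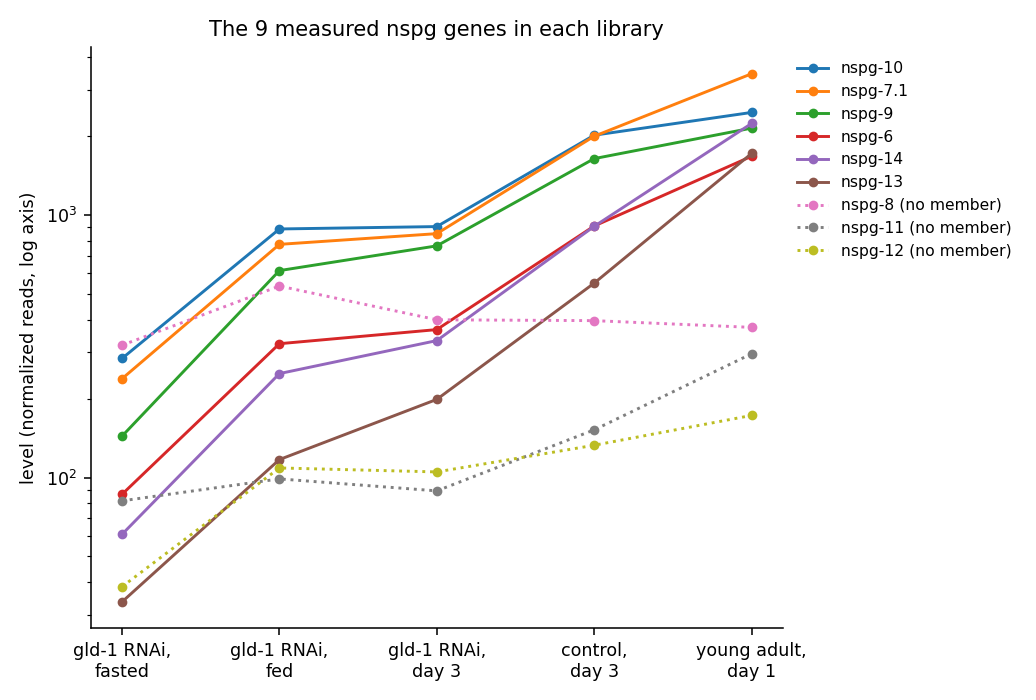
Level (normalized reads on 1 scale, log axis) of the 9 measured nspg genes in the fasted, fed, gld-1 RNAi, control and young adult libraries, 1 library per group, with lines that join the values of a gene. Solid lines are the 6 members and dotted lines the 3 others. The members lie between 33.6 and 285 in the fasted library and between 1679 and 3465 in the young adult library, while nspg-8 stays between 320 and 537.

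Of the genes that mark tissues, the group held 1. Another intestine marker, mtl-2, met both folds (-2.39 and -1.22) and is missing because it was set aside by name. ges-1 (R12A1.4, chromosome V) encodes the gut esterase, a carboxylesterase made in the intestine. It stood at 68.7 in the fasted, 219 in the fed, 243 in the gld-1 RNAi, 600 in the control and 335 in the young adult library. The fasted library lay furthest below the rest. Of 20 listed intestine markers, 6 of 19 measured were at least 2-fold lower and 0 higher in gld-1 RNAi over control (median -0.73). In fasted over fed 4 of 15 were lower and 1 higher (median 0.02). Both counts of lower genes include ges-1 and mtl-2, and 7.99% and 3.31% of all tested genes were lower. The actin act-5 of the gut brush border had log2 folds of -0.73 and -1.59 in these contrasts, the gut proton pump subunit vha-6 had -0.99 and 0.76, and the peptide transporter pept-1 had -1.11 and 1.21. Intestine markers therefore differed from one another under fasting. Their summed level was 10293 in the fasted, 11163 in the fed, 11217 in the gld-1 RNAi, 15736 in the control and 51088 in the young adult library, and fat-7 was at 0 reads in all 5. The part of the amount of intestinal RNA in the members' values was not tested.

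Markers of other tissues were set beside the members in the same way. Oocyte and eggshell genes, of which 24 of 28 measured were at least 2-fold lower and 0 higher in gld-1 RNAi over control, had a summed level of 235979 in the fasted, 154671 in the fed, 190503 in the gld-1 RNAi, 560525 in the control and 200953 in the young adult library. In fasted over fed 0 of 28 were lower and 5 higher, so this list moved with the members in the first contrast and not in the second. Hypodermis markers had 2 of 10 lower in gld-1 RNAi over control and 0 of 9 in fasted over fed. Body wall muscle markers had 0 of 17 and 1 of 17 lower in these contrasts (1 and 0 higher), and pharynx markers 1 of 9 and 0 of 8 (0 and 1 higher). For neurons the counts of lower genes were 0 of 15 in both, with 5 and 0 higher, and for germline markers 2 of 16 and 0 of 16, with 4 and 0 higher. For gonad sheath and spermatheca markers (8 and 8 measured) and coelomocyte markers (2 and 1 measured) they were 0 in both directions, and for sperm genes 0 of 4 in both, with 3 and 0 higher. None of the members stood on these lists apart from ges-1. Apart from the caenopores and the other antimicrobial genes described above, the lists of gene functions held no member. They are given by how many of their genes were lower and higher. Genes first transcribed in embryos had 12 lower and 0 higher of 14 in gld-1 RNAi over control, and 0 lower and 1 higher of 8 in fasted over fed. Lipases had 2 lower and 3 higher of 12 in the first contrast and 1 lower and 1 higher of 8 in the second, and lipid binding proteins 1 lower and 1 higher of 15 and 2 lower and 1 higher of 16. Fatty acid synthesis had 2 lower and 0 higher of 24, and 1 lower and 1 higher of 24. Beta oxidation had 6 lower and 0 higher of 29, and 0 lower and 1 higher of 26. In each of these metabolic lists most genes were within 2-fold in both contrasts. Propionate breakdown had 2 lower of 12 and then 0 of 12, and the glyoxylate cycle with gluconeogenesis 3 of 18 and then 0 of 18, with 0 higher in either. The methionine cycle had 0 lower and 2 higher of 19, and 2 lower and 0 higher of 19, and amino acid breakdown 0 lower of 23 and 2 lower of 22, with 0 higher. Nutrient transporters had 7 lower and 4 higher of 34, and 1 lower and 3 higher of 31. Lysosomal hydrolases had 5 lower and 1 higher of 33, and 3 lower and 1 higher of 28. For the remaining lists the counts were 1 lower and 0 higher of 20 and 1 lower and 1 higher of 20 for metal binding and oxidative stress, 1 lower and 1 higher of 3 and 1 lower and 0 higher of 3 for scl genes, and 0 lower of 11 in both, with 4 and 0 higher, for uterine and vulval genes.

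Among the other named members, mbug-1 and hrg-11.3 differed most in what the young adult library showed. mbug-1 (F55G11.4, chromosome IV) stood at 84.7 in the fasted, 598 in the fed, 640 in the gld-1 RNAi, 2791 in the control and 156 in the young adult library. It had the lowest sum of both folds of all named members (-2.07 and -2.78), and its young adult level was nearer to that of fasted animals than to that of the control. hrg-11.3 (T25C12.3, chromosome X), whose class is named for haem-responsive genes, stood at 225 in the fasted, 633 in the fed, 806 in the gld-1 RNAi, 2451 in the control and 9450 in the young adult library. Here the young adult library was the highest.

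The members hsp-17, fbxa-60 and pqn-36 belong to name families with other measured genes. hsp-17 (F52E1.7, chromosome V), a small heat shock protein, stood at 112 in the fasted, 271 in the fed, 202 in the gld-1 RNAi, 460 in the control and 493 in the young adult library. fbxa-60 (T12B5.10, chromosome III), an F-box protein of the kind that selects targets for ubiquitination, stood at 57.5, 173, 164, 417 and 281 in the same order. Of 15 measured hsp genes and 41 measured fbxa genes, these were the single members, where 44 of all 8925 measured genes were members. pqn-36 (F39D8.1, chromosome X), of a class with prion-like glutamine and asparagine rich stretches, had the lowest mean level per kb of the 44, 33.8, with levels of 38.4 in the fasted, 99.7 in the fed, 60.6 in the gld-1 RNAi, 176 in the control and 236 in the young adult library.

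clc-1 (C09F12.1, chromosome X), a claudin-like membrane protein of cell junctions, stood at 46.4 in the fasted, 110 in the fed, 144 in the gld-1 RNAi, 327 in the control and 280 in the young adult library. papl-1 (F18E2.1, chromosome V) was highest in young adults, with 81.5, 190, 163, 367 and 1012 in the same order, and so was fdr-1 (C49C8.5, chromosome IV) with 46.4, 115, 164, 351 and 530. srlf-30 (ZK596.1, chromosome IV) was highest in the control, with 62.3, 157, 137, 295 and 101. In all 4 genes the fasted library was the lowest, as in 43 of the 44 members, which the rule favours.

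The members known by a sequence name only included the most abundant gene and the furthest folds. C17F4.7 (chromosome II) stood at 937 in the fasted, 4560 in the fed, 5810 in the gld-1 RNAi, 15405 in the control and 11236 in the young adult library. Its levels were the highest of the 44 in every library except the fasted one, where spp-5 with 1036 was higher. T22B7.7 (chromosome X) stood at 659, 1834, 1998, 4996 and 325 in the same order, and was the single member with its lowest level in young adults. K12H4.7 (chromosome III) had 166, 484, 646, 1724 and 6208, F52E1.14 (chromosome V) had 436, 974, 814, 2772 and 1363, and Y105C5B.15 (chromosome IV) had 107, 917, 760, 2312 and 406. Among the 4 older libraries fasted was lowest and control highest in all 5, as in all 44 members, an order that the rule favours. The young adult level lay at either end or between.

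At the extremes of the rule, outside the naming rule and picked after their values were seen, C14C6.5 (chromosome V) had the lowest log2 fold in gld-1 RNAi over control (-2.66) and C23H5.8 (chromosome IV) the lowest in fasted over fed (-3.77). C14C6.5 stood at 28.8 in the fasted, 262 in the fed, 157 in the gld-1 RNAi, 1033 in the control and 296 in the young adult library. It was the single member that the authors' deposited tables called in both contrasts at an adjusted p below 0.1. These calls set 1 library against 1 in the contrasts that chose the gene, so they are no support. C23H5.8 stood at 28.8 in the fasted, 415 in the fed, 383 in the gld-1 RNAi, 988 in the control and 2496 in the young adult library. In the fasted library both rest on 18 reads. By the authors' deposited table for gld-1 RNAi over control 1 of the 44 was below an adjusted p of 0.1, among 47 of all genes. By their deposited table for fasted over fed 10 members were, among 132 of all genes.

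**Figure D4:**
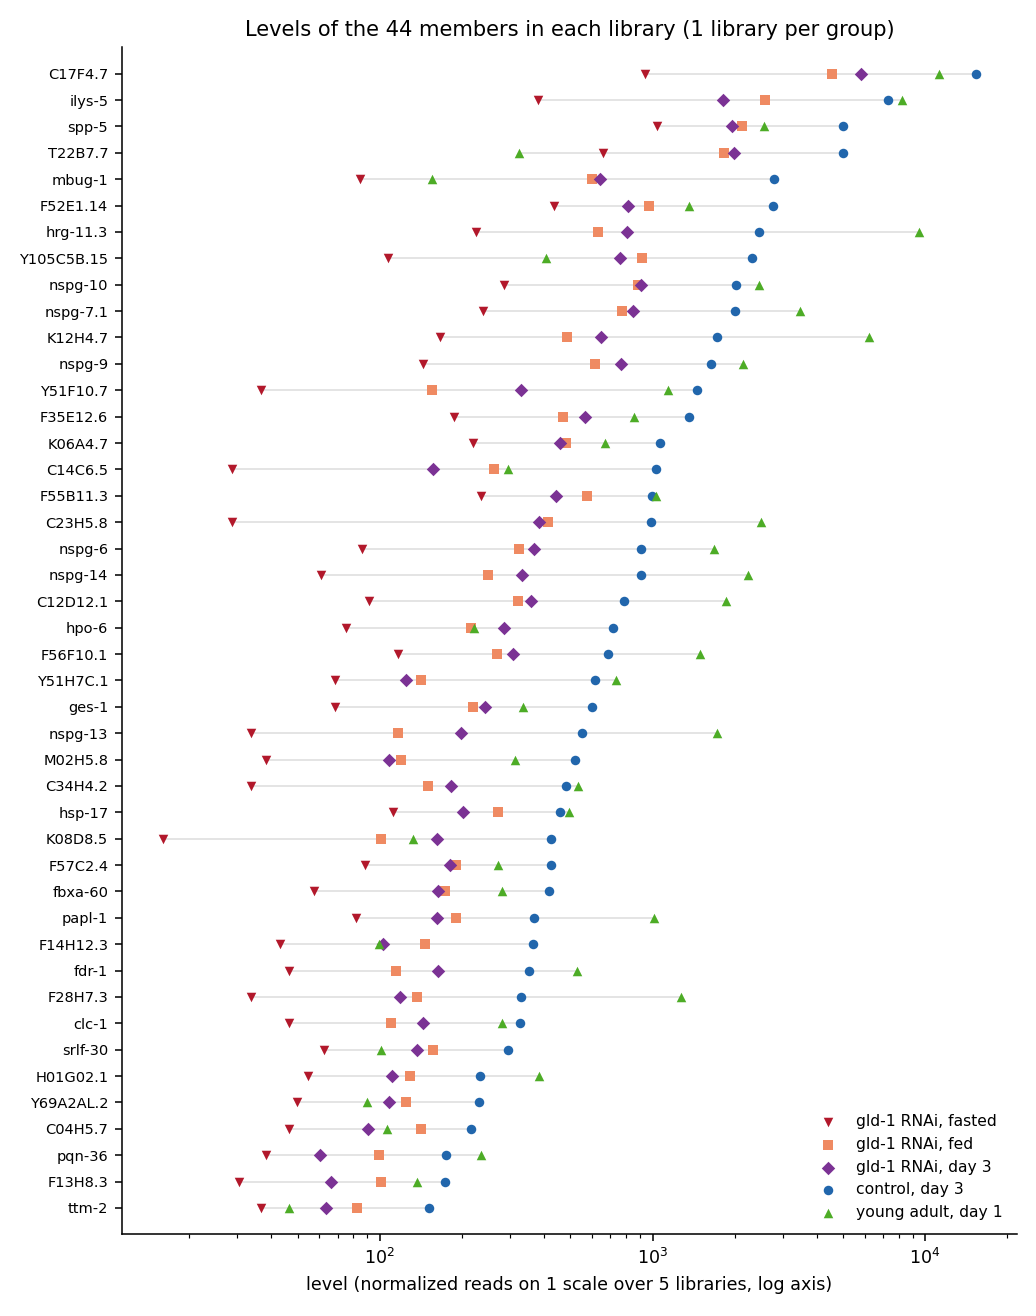
Level (normalized reads on 1 scale, log axis) of the 44 members in each library, 1 row per gene in the order of the control level, with a symbol for each library and 1 library per group. The fasted symbol (red) is the leftmost in 43 of 44 rows, the fed (orange) and gld-1 RNAi (purple) symbols lie close together in most rows, and the young adult symbol (green) ranges from the left end to the right end.

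The contrasts that the rule did not use reuse its libraries, so they describe the members and give no independent support. Fed day 4 animals, which had left the RNAi food, were close to gld-1 RNAi animals of day 3 for most members. Their median log2 fold in fed over gld-1 RNAi was 0.05, with 23 above 0 and 21 below, against a median of -0.02 for all tested genes. At least 2-fold lower was 1 member, Y51F10.7 (chromosome I), and 0 were higher, where 0.243% of all tested genes were lower and 0.212% higher. Y51F10.7 stood at 36.8 in the fasted, 155 in the fed, 331 in the gld-1 RNAi, 1451 in the control and 1136 in the young adult library, with a log2 fold of -1.11 in fed over gld-1 RNAi (interval -1.37 to -0.86). Further from 0 than the other named members were nspg-13 at -0.78 (-1.09 to -0.48) and pqn-36 at 0.69 (0.27 to 1.12). The choice of members favours a low gld-1 RNAi and a high fed value and so works against folds below 0 here.

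In fasted over gld-1 RNAi, which sets day 4 animals after 48 h without food against day 3 animals, all 44 log2 folds were below 0, from -3.71 (C23H5.8) to -0.67 (pqn-36), with a median of -1.66. Of the 41 members with a mean of at least 50 here, 35 were at least 2-fold lower. Of all tested genes 3.45% were lower and 0.571% higher. The rule asked for a low fasted value, which leans the same way. Named members at the low end were mbug-1 (-2.92, interval -3.37 to -2.54), nspg-13 (-2.55, -3.30 to -1.94) and nspg-14 (-2.45, -2.995 to -1.996). Those at the high end besides pqn-36 (-1.41 to -0.01) were ttm-2 (-0.80, -1.55 to -0.13) and hsp-17 (-0.87, -1.28 to -0.49). In fed over control, on the scale over 5 libraries, all 44 were below 0 as well (median -1.39), and 34 were at least 2-fold lower, where of all tested genes 11.3% were lower and 9.47% higher.

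Between young and older control animals the members did not share a direction. In control over young adult, 12 members were higher by 2-fold or more and 9 were lower by as much, where 16.1% of all tested genes were higher and 25.8% lower. With the libraries scaled to equal totals the split was 9 higher to 13 lower, since the median of all genes then moved from 0.16 to -0.34. With equal upper quartiles, and with equal totals without ribosomal RNA, it was 10 higher to 9 lower. Furthest up were mbug-1 (log2 fold 4.15, interval 3.92 to 4.42), T22B7.7 (3.94, 3.77 to 4.12) and Y105C5B.15 (2.51, 2.35 to 2.67). hpo-6 and ttm-2, the toxin-related genes, were both higher at 1.69 (1.47 to 1.92 and 1.22 to 2.23). Furthest down were hrg-11.3 (-1.95, -2.01 to -1.89), F28H7.3 (-1.94, -2.11 to -1.77) and K12H4.7 (-1.85, -1.92 to -1.77), and papl-1 (-1.46), nspg-13 and nspg-14 were among the 9 as well. The control was the highest of the 5 libraries for 23 members and the young adult library for 21. The same counts over all genes are not given here. The rule asked for a high control value, which favours folds above 0 here. Tissue markers moved in this contrast too. Body wall muscle markers were at least 2-fold lower for 16 of 17 genes, pharynx markers for 9 of 12 and sperm genes for 15 of 16, with 0 higher. Intestine markers had 9 lower and 3 higher of 19, and hypodermis markers 9 lower and 2 higher of 16. Neuron markers had 6 of 15 lower and gonad sheath and spermatheca markers 5 of 9, with 0 higher. Oocyte genes had 24 higher and 1 lower of 29, germline markers 5 higher and 0 lower of 16, and coelomocyte markers 0 of 2 either way. Body wall muscle markers summed to a level of 38973 in the control and 261274 in the young adult library. The part of tissue amounts in the members' values was not tested.

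Set against the young adults, the tumour animals of day 3 were lower for 35 of the 44 members. The members' median log2 fold was -1.14, against 0.12 for all tested genes. At least 2-fold lower in gld-1 RNAi over young adult were 23 members and at least 2-fold higher 3, where 23.8% of all tested genes were lower and 17.4% higher. The 3 were T22B7.7 (log2 fold 2.73, interval 2.56 to 2.91), mbug-1 (2.14, 1.89 to 2.42) and Y105C5B.15 (1.02, 0.84 to 1.19). With equal totals the counts were 29 and 2, with equal upper quartiles 23 and 3, and with equal totals without ribosomal RNA 23 and 2. Lowest were hrg-11.3 (-3.44, -3.53 to -3.35), F28H7.3 (-3.29) and K12H4.7 (-3.15). The rule asked for a low gld-1 RNAi value, which favours folds below 0 here. Age and RNAi differ together in this contrast.

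**Figure D5:**
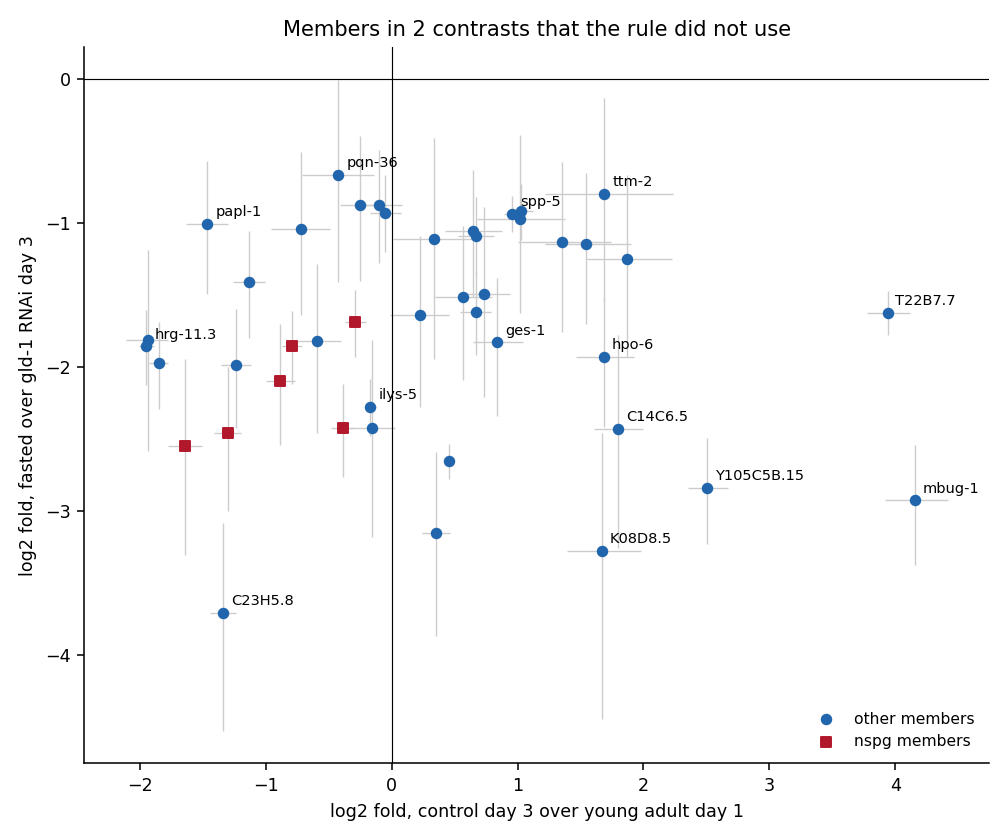
Log2 fold of control day 3 over young adult day 1 (horizontal axis) against log2 fold of fasted over gld-1 RNAi day 3 (vertical axis) for the 44 members, with exact 95% counting intervals. Red squares are the 6 nspg members and blue points the others. All points lie below 0 on the vertical axis, and on the horizontal axis they spread from -1.95 to 4.15, with all nspg members left of 0.

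In the genome the members were spread unevenly. Chromosome IV held 14 of the 44 (31.8%, against 16.1% of all measured genes), chromosome X 11 (25%, against 12.2%) and chromosome V 9 (20.5%, against 16.2%). There were 6 on chromosome II, 3 on chromosome III and 1 on chromosome I (2.27%, against 18.9%). Next to each other among the protein-coding genes lay nspg-13 and nspg-14, and hsp-17 and F52E1.14, and between hpo-6 and C34H4.2 lay 2 other genes. The members' exons covered a median of 1034 bases, against 1569 for all measured genes, from 254 for K06A4.7 to 6540 for hrg-11.3. These shares are descriptions of a group chosen on its values.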

How the data were processed

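Per the submitters' processing notes, reads were handled with TopHat, HTSeq and DESeq. Tool versions, genome build, strandedness and any poly(A) step are not given in the sources used here. Coordinates are left out for that reason. In 5 tables the authors deposited normalized signal, that is, counts per gene over a size factor particular to the pair of libraries. Per the file headers, each also has the authors' adjusted p-value. That p-value comes from 1 library against 1. The day 3 gld-1 RNAi library stands in 4 tables. Column assignment follows the table names. Dividing each column by its smallest value above 0 gave whole reads for 100% of values (within 0.1 read), and a library that recurs gave equal reads in every table (0 genes differed).

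Folds are log2 of (second value + 1) over (first value + 1) within a table, which understates changes of low genes. Levels, and folds of control over young adult and fed over control, use median-of-ratios size factors over 5 libraries. With 1 library per group no residual degrees of freedom remain, and the recovered reads were given no count model. Exact (Clopper-Pearson) 95% intervals extend the log2 ratio by 0.60, 0.41 and 0.13 to each side at 50, 100 and 1000 reads in each library. Of 45461 identifiers, 44936 were matched to RefSeq or Ensembl release 115 (WBcel235), used for names, exon lengths and gene order. The 525 others held at most 0.368% of any library's reads.

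The members, and the 26 gene lists (592 entries) with the rule for named genes, were chosen with earlier results of these data known. Named were the members with a gene name that have the lowest sums of both folds, the highest levels or the most extreme other folds, list members, families with at least 3 members, genes at the thresholds and the 5 most abundant members without a gene name. Other genes that are named (relatives of members, neighbours, extremes, single genes behind small counts) were chosen after their values were seen. The code was tested on simulated counts. Python 3.11.15, numpy 2.4.6, pandas 2.3.3 and scipy 1.17.1 were used. Overlapping or antisense genes cannot be told apart where strand was not used.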

Additional observations from a re-analysis of the deposited data

How the results depend on the processing

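The group of 44 depends most on the thresholds. It held 87 genes at a minimum mean of 10, 15 at 200, 131 at 1.5-fold and 6 at 3-fold, 68 with no family left out, and 1 when the authors' adjusted p had to be below 0.1 in both tables. Counted only where the counting interval lay wholly past 2-fold in both contrasts, an alternative chosen after seeing the data, it held 23. With equal totals or equal upper quartiles 30 of the 44 met both folds, with equal totals without ribosomal RNA (also chosen after seeing the data) 38, with a pseudocount of 10 39, and with none all 44 and 2 more. In gld-1 RNAi over control these scalings moved the median of all genes from -0.10 to 0.03, 0.04 and -0.01, and all 44 members remained below 0 in both contrasts under each. Of the members lower in fasted over gld-1 RNAi (35), 14 were counted at a minimum mean of 200, because fewer have such a mean. Of those lower in control over young adult (9), 4 passed 3-fold. The count for fed over gld-1 RNAi (1) was 3 at 1.5-fold, 0 at 3-fold and 0 by the counting interval. By the authors' adjusted p below 0.1, their deposited tables call 21 members in fasted over gld-1 RNAi, among 176 of all genes. They call 0 members in gld-1 RNAi over young adult (23 by 2-fold), among 185 genes, and 1 in fed over gld-1 RNAi, among 65. Apart from the values given here, the scalings, minimum means, pseudocounts, fold thresholds and the counting interval kept these counts within 1.5 times. No member that was 2-fold apart in a contrast changed sign under another scaling or pseudocount. Depth limits the fasted values, which rest on 10 to 648 reads (median 45). No paired analysis was possible because each group has 1 library. No group has the 4 samples that a search for outlying samples needs.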
